A study of Mus musculus with 6 samples.

Results

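The peritoneal CD4 T cells were 113 of the 7665 cells that passed the cell filter, or 1.47% (exact binomial 95% interval by the Clopper-Pearson method, 1.22 to 1.77%). They were chosen by their own transcripts, counted as unique molecular identifiers (UMIs, one per captured mRNA molecule). A CD4 T cell held at least 2 UMIs of Cd3d, Cd3e and Cd3g together, at least 1 of Cd4, none of Cd8a or Cd8b1, none of the macrophage genes Csf1r and Adgre1, at most 2 of the B cell genes Cd79a and Cd79b, and at most 2 of the cytotoxic genes Klrd1, Nkg7, Gzma and Klrk1. These genes are therefore description and not a result. Of 705 cells with a Cd3 sum of at least 2, 177 exceeded the Cd79 limit, 31 held a Csf1r or Adgre1 UMI and 66 exceeded the cytotoxic limit, some of them more than 1 of these. The 455 that passed were split into the 113 CD4 T cells, 116 CD8 T cells, 226 cells with neither co-receptor and 0 with both. A cell without a Cd4 UMI may still express Cd4 at this depth, so the 226 may hold further CD4 T cells. Many of the chosen cells lay at the limit: 83 had exactly 1 Cd4 UMI and 22 a Cd3 sum of exactly 2, while 16 cells with a Cd3 sum of 1 met every other condition and stayed outside.

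The cells were lavaged from the peritoneum of C57BL/6 mice of 8 to 12 weeks, either MerTK +/+ or MerTK -/- (the MerKD line, which lacks function of a receptor with which macrophages bind apoptotic cells). Cells of each genotype had a media change (control) or a co-culture of 2 h or 6 h with ACs, which were UV-irradiated apoptotic Jurkat cells (a human T cell line) carrying GFP, at 5 per peritoneal cell. Cells of 3 mice were pooled for each of the 6 libraries, and in all of them non-adherent cells were rinsed away after 1 h, so that the T cells described here are those that stayed with the adherent macrophages. The cells carried a library number, but no label ties a number to a genotype or time, so that conditions could not be compared. The table therefore counts as 1 sample, no p-value is given, and library numbers serve as names only.

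CD4 T cells recognise peptides on MHC class II molecules through a T cell receptor that signals through the CD3 chains, with CD4 as co-receptor. Naive cells keep the transcription factors Lef1 and Tcf7 and recirculate through lymph nodes by way of Ccr7 and S1pr1. Memory and effector cells tend to lose Ccr7 and to gain adhesion molecules and receptors for inflamed tissue, and regulatory T cells are defined by Foxp3.

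Over the 6 libraries the deposited counts summed to between 4234786 and 10287079 UMIs, and kept cells held a median of 4378. The CD4 T cells held 358337 UMIs in all, with a median of 2754 per cell (range 1331 to 14829), close to the 2919.5 of CD8 T cells and below the 5358 of 2874 B cells (at least 4 Cd79 UMIs and no Cd3 UMI). None of them was called a doublet by Scrublet, which marked 47 of 7760 barcodes (0.606%), and none carried 1 of the 28 barcode sequences found in 2 libraries. The eGFP reporter had 1 UMI in all kept cells and 0 in CD4 T cells. Levels below are UMIs of the summed cells scaled to a total of 1000000 (CPM) with exact Poisson 95% intervals, and ratios have exact conditional 95% intervals. All intervals cover counting error only.

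The library with number 3 held the most CD4 T cells, 47 of 1071 kept cells (4.39%). Numbers 1 and 2 held 19 (1.18%) and 28 (2.2%), and numbers 4, 5 and 6 held 10 (0.704%), 7 (0.735%) and 2 (0.149%). CD8 T cells followed a like pattern, with 21, 23, 46, 12, 7 and 7 cells in numbers 1 to 6. Without number 3 the share over all libraries was 1.00%. Within the 455 T cells of the gate, CD4 T cells were 24.8% (20.9 to 29.1%), and between 9.09% in number 6 and 30.1% in number 3, with intervals that overlapped.

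**Figure D1:**
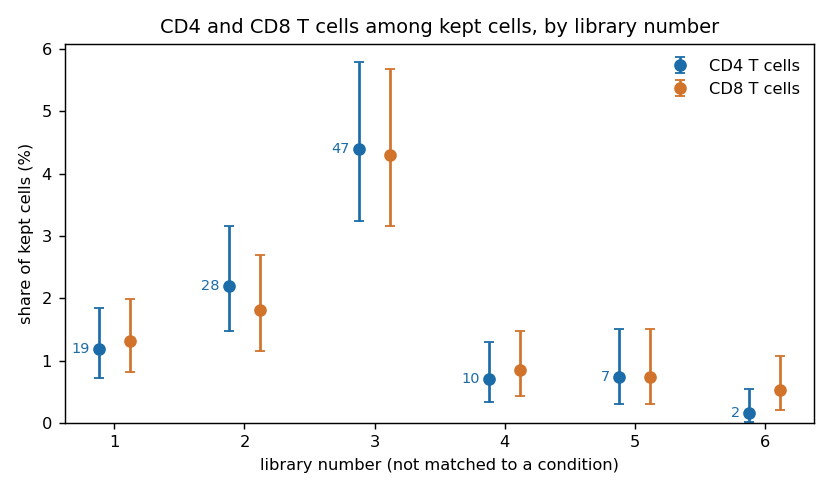
Share of kept cells (%) that were CD4 T cells (blue, with their number) or CD8 T cells (orange) in each library number, with exact binomial 95% intervals. Both shares were highest in number 3, at 4.39% and 4.30%.

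The labelled cell type was checked against its markers. Of the fixed markers, Cd4 and Cd3e were part of the rule, and Lef1 and Tcf7 were not. Lef1, at 382 CPM (137 UMIs), was found in 67 of 113 CD4 T cells (59.3%, 49.6 to 68.4%), and Tcf7, at 631 CPM (226 UMIs), in 85 (75.2%). In B cells, which are deeper and should lack both, they stood at 1.68 and 2.69 CPM, in 0.870% and 1.29% of cells, and in macrophages in 0.532% and 0.997% of cells. After each cell was thinned to 1500 UMIs, which 111 of the 113 cells reached, Lef1 was found in 44.1% and Tcf7 in 58.6% of CD4 T cells, against 0.247% and 0.317% of B cells. By library number Lef1 read 256, 475, 368, 550, 399 and 0 CPM in numbers 1 to 6, and Tcf7 443, 606, 673, 719, 718 and 942 CPM. The 0 of Lef1 stood in number 6, where 2 cells allow up to 471 CPM. Both genes were thus detected in every library with 7 or more CD4 T cells.

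Defining genes of gamma delta and natural killer T cells had no UMI in the CD4 T cells, but other genes of those lists did. Trdc, Tcrg-C1, Tcrg-C2 and Tcrg-C4 (constant segments of the gamma delta T cell receptor), Zbtb16 (natural killer T cells) and Sox13 were at 0, which allows up to 8.37 CPM. The 1 gene of 7 with UMIs in the gamma delta list was Blk (8 UMIs), which B cells also express, and the 2 of 14 in the natural killer T cell list were Tyrobp and Il2rb (61 UMIs). The 7 CD8 T cell markers that the rule did not use all had UMIs, summing to 597 CPM against 1909.5 in CD8 T cells. The 226 cells without a co-receptor UMI held 44 UMIs of Trdc and 28 of Tcrg-C1. Of 19 NK cell markers the rule limited 4. Of the other 15, 10 were at 0, among them Ncr1 and Eomes, and 5 summed to 371 CPM, against 6530 in the cytotoxic group. Of 22 macrophage markers the rule set 2, Csf1r and Adgre1, to 0. Of the other 20, 12 were at 0, among them C1qa and Mertk, and 8 summed to 260 CPM, with a range of 160 to 1413 CPM over library numbers. The highest was number 6, with 2 CD4 T cells.

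B cell markers were present in a few cells. Of 22 such genes 18 had a UMI, with a summed 2461 CPM over all and between 508 and 20254 CPM by library number. The highest of these was number 6, which held only 2 CD4 T cells. Pax5, Blnk, Vpreb3 and Cr2 were at 0. The MHC class II chaperone Cd74 was found in 12 CD4 T cells, but 6 of them, with 41 to 98 UMIs each, held 340 of 346 Cd74 UMIs, 172 of 173 of H2-Aa and 60 of 63 of the antibody light chain Igkc, and every other cell had at most 1 Cd74 UMI. All 6 also held Ighm, and 5 of 6 Cd79a. These 6 passed the rule and were not called doublets, and values below are given without them where they decide a result.

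Genes with a ribosomal protein or mitochondrial symbol were set aside, but ribosomal sequences under other symbols were not. Among the most abundant transcripts left were Gm42418 (25602 CPM), the elongation factor Eef1a1 (11065), Tpt1 (9795), the ubiquitin-like fusion Fau (8188), Tmsb10 (7052), Gm10076 (6809), Tmsb4x (4984), Malat1 (3873) and Gm7536 (3086). Tmsb10, an actin-binding thymosin, stood at 1854 CPM in B cells and 7234 in CD8 T cells. Ribosomal protein genes took 40.2% of UMIs in CD4 T cells, 43.8% in CD8 T cells, 36.9% in B cells and 30.1% in the cytotoxic group.

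Against B cells, the largest of the compared groups, CD4 T cells were marked by the T cell receptor and its signalling chain. They were also marked by costimulatory receptors and by naive T cell genes. In the signalling list, 16 of 22 genes were at least 2-fold higher and none at least 2-fold lower, where 15% and 17.4% of 6083 tested genes were past 2-fold. Its median log2 ratio was 4.89 (median of all genes, 0.02). A gene was tested at 20 CPM or more in either cell type, which in CD4 T cells takes 8 UMIs, so counting error alone carries some genes past 2-fold.

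The adaptor Lat stood at 407 CPM in CD4 T cells and 4.32 in B cells, and the kinase Lck at 234 and 25.9. Zap70, the kinase that docks on phosphorylated CD3 chains, had 29 UMIs against 0 in B cells, at least 480.5-fold higher at a floor of 3 UMIs in the B cells, and Camk4 had 32 against 0, at least 530-fold higher. The beta chain constant segment Trbc2 stood at 553 and 1.01 CPM. Trbc1 (195 CPM) and Trbc2 are near-identical copies, and the division of UMIs between them is uncertain.

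In the costimulation and checkpoint list 13 of 14 genes were past 2-fold higher (median 3.75). Cd28, the receptor for B7 ligands, stood at 148 CPM against 0.225, Icos at 80.9 against 0.168, and Tnfrsf18 (GITR) at 181 against 7.80. The exception was Btla, at 16.7 against 34.6 CPM. In the naive and quiescence list 20 of 24 were past 2-fold higher and 0 lower (median 2.46). The insulin-like growth factor binding protein Igfbp4 stood at 530 against 0.674 CPM, 787-fold higher, and Il7r, the receptor of the survival cytokine IL-7, at 433 against 7.64. S1pr1 and Klf2, the factor that maintains its transcription, had smaller gaps, at 441 against 107 and 430 against 133 CPM.

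Among the highest ratios over B cells were also the surface glycoprotein Thy1 (100 UMIs, 279 CPM; 4 UMIs in B cells), Nsg2 (64.2 CPM), Dapl1 (58.6), Gm2682 (117), the kinase Prkcq (120), Cd6 (97.7) and the T lineage factor Bcl11b (187 against 0.337 CPM). Of 13 lineage transcription factors 8 were past 2-fold higher and 1 lower (Id3, at 8.37 against 43.0 CPM). Interferon-stimulated genes had a median log2 ratio of 1.34, with 12 of 16 past 2-fold higher, such as Gbp2 (78.1 against 9.26 CPM). Of the 8 GIMAP genes, GTPases of lymphocyte survival, 5 were past 2-fold higher, led by Gimap3 at 737 against 153 CPM.

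Immediate early and activation genes ran the other way. Of 25 tested, 15 were at least 2-fold lower in CD4 T cells and 1, Tnfaip3, higher (median -1.64, and -0.81 with each library number weighted equally). Nr4a1, an orphan receptor induced by antigen receptor signals, stood at 14.0 against 322 CPM, Egr1 at 11.2 against 128, and Cd69 at 5.58 against 62.8. Junb did not differ by 2-fold (441 against 339 CPM). The largest deficits among all genes were the chemokine Ccl4 (2 UMIs against 664 CPM), Gm15987 (1 UMI against 237), Apoe (2 UMIs against 361), the inhibitory Fc receptor Fcgr2b (1 UMI against 177), Ctsh, Iglc3, the kinase Lyn, Cd300lf, Csf2rb and Ero1lb, each with 1 or 2 UMIs in CD4 T cells. For Fcgr2b the log2 ratio was -5.99 (-11.29 to -3.51). All 17 tested B cell markers were past 2-fold lower (median -4.15). The rule limited Cd79a and Cd79b in CD4 T cells and chose B cells by them, so this too is description.

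**Figure D2:**
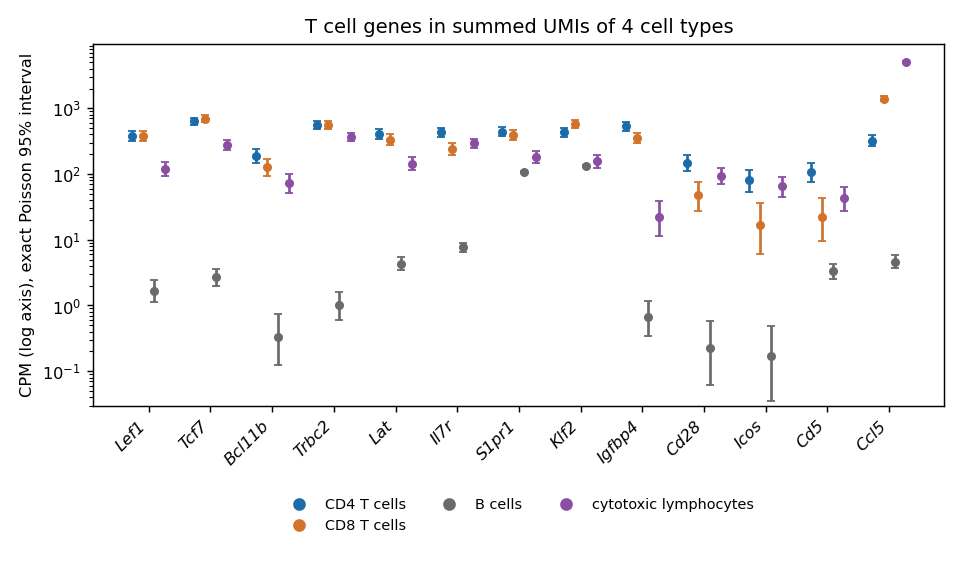
CPM (log axis) of 13 genes in the summed UMIs of CD4 T cells, CD8 T cells, B cells and cytotoxic lymphocytes, with exact Poisson 95% intervals. Lef1 (382 CPM), Tcf7 (631) and Trbc2 (553) in CD4 T cells lay near their levels in CD8 T cells. Cd28, Icos and Cd5 were higher in CD4 than in CD8 T cells, and Ccl5 was highest in the cytotoxic group.

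The cytotoxic lymphocytes (at least 3 UMIs of Klrd1, Nkg7, Gzma and Klrk1) were also 113 cells, which the rule kept apart from the CD4 T cells. They are a mixed group: 66 had a Cd3 sum of at least 2, 7 a Cd4 UMI, 11 a Csf1r or Adgre1 UMI and 19 a Cd79 sum over 2. They carried Lyz2 at 1962 and Fn1 at 1467 CPM, genes of macrophages. Against them CD4 T cells were higher in naive genes and lower in memory and effector genes. In the naive list 13 of 24 were past 2-fold higher and 0 lower (median 1.10; all genes, -0.19), where 5.76% of 6455 genes were past 2-fold higher and 18% lower.

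Igfbp4 stood at 530 against 22.2 CPM (23.9-fold), Lef1 at 382 against 120, Rflnb at 276 against 55.4 (4.98-fold) and Klf2 at 430 against 155. The largest ratios included Ly6c1 (193 against 9.24 CPM), Nsg2 (64.2 against 7.39), Trib2 (198 against 35.1), Tdrp (47.4 against 9.24) and the OX40 receptor Tnfrsf4 (120 against 24.0). In the memory and effector list 15 of 24 were past 2-fold lower and 1, Cd40lg, higher (median -1.42). The chemokine Ccl5 stood at 324 against 5055 CPM, Itgb1 at 137 against 368 and S100a4 at 69.8 against 192. All 12 tested NK cell markers and all 8 natural killer T and innate-like genes were past 2-fold lower, both with a median of -5.14. These calls are description. A gene at 0 in CD4 T cells was tested only at 20 CPM or more in the cytotoxic group. At its floor of 3 UMIs (8.37 CPM) such a gene was always past 2-fold lower. Outside the rule 10 of 15 NK cell markers were at 0 in CD4 T cells, as were 12 of 14 natural killer T and innate-like genes. The rule also set these groups apart by cytotoxic genes. The genes with the largest deficits, Ccl24, Thbs1, Saa3, Cxcl2, Il1rn, Fn1, Slpi, Lyz2, Arg1 and Tgm2, had 1 to 7 UMIs in CD4 T cells. With the 84 cytotoxic cells free of Csf1r and Adgre1 and with a Cd79 sum of at most 2, the log2 ratio of Lyz2 went from -6.65 to -3.79, of Fn1 from -7.04 to -3.99 and of Slpi from -6.79 to 0.31, and the median of the naive list was 0.62.

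The CD8 T cells were chosen by the same rule with Cd8a or Cd8b1 in place of Cd4, and had nearly the same summed depth (358730 UMIs). Naive and signalling genes were close to equal: Lef1 stood at 382 CPM in CD4 and 385 in CD8 T cells, Ccr7 at 268 in both, and Tcf7 at 631 and 697. The signalling list had a median log2 ratio of 0.02 (all genes, 0.09), with 3 of 22 genes past 2-fold higher and 0 lower. In the naive list 1 gene, Nsg2, was past 2-fold higher and 1, Arl4c, lower of 24. As background, 12.9% of 5665 genes were past 2-fold higher and 5.81% lower.

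These counts, 730 higher and 329 lower, lean on ties. The totals are so alike that a gene with exactly 2 times the UMIs in CD4 T cells just passed (120 genes) and one with exactly 2 times in CD8 T cells just failed (80 genes). Without the tied genes 610 were higher and 329 lower. Other scalings shifted the split: with median-of-ratios scaling 582 were higher and 515 lower, and with CPM free of immunoglobulin, mitochondrial and ribosomal protein genes 920 and 934. Without library number 3 the counts were 1249 and 590. No direction of the whole transcriptome is read from them.

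Over cytotoxic lymphocytes the costimulation list had 3 of 15 genes past 2-fold higher in CD4 T cells and 3 lower (median 0.49). Of its genes, Icos was found in 22 of 113 cells of either group and Cd28 in 39 against 35. Over CD8 T cells 7 of 13 genes tested were past 2-fold higher and 0 lower (median 1.43, and 0.80 without library number 3). Tnfrsf4 had 43 UMIs (120 CPM) against 4 (11.2 CPM), a log2 ratio of 3.43 (1.97 to 5.37). Icos had 29 against 6 (log2 2.27, 0.98 to 3.83), Cd28 had 53 against 17 (log2 1.64, 0.83 to 2.52), and the inhibitory receptor Pdcd1 had 27 against 9. The helper ligand Cd40lg, through which CD4 T cells stimulate B cells, had 8 UMIs in 8 cells against 0. Zbtb7b (ThPOK), the factor that directs thymocytes to the CD4 lineage, had 7 UMIs in 6 cells against 0. Zbtb7b was not particular to CD4 T cells (5.31%), as 7.08% of cytotoxic lymphocytes and 5.53% of the deeper B cells also held it. Runx3, its counterpart of the CD8 lineage, had 49 UMIs against 79 (log2 -0.69, -1.23 to -0.16) and was lower in 4 of 4 library numbers with at least 10 UMIs.

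Other genes higher in CD4 T cells were the signalling modulators Cd5 (38 UMIs against 8) and Cd6 (35 against 12), the T helper 2 factor Gata3 (16 against 4), and Ramp3, which modifies receptor activity (56 against 4, 14.0-fold, higher in 4 of 4 library numbers). Genes with few UMIs in CD8 T cells had wide intervals. The tetraspanin Tspan32 had 43 against 3 (log2 3.84, 2.2 to 6.18), the Rab GTPase activator Tbc1d4 34 against 3 (log2 3.50, 1.84 to 5.85), Runx1 25 against 3 (log2 3.06, 1.35 to 5.43), Rora 23 against 3 (log2 2.94, 1.21 to 5.32) and Tmem64 30 against 0 (at least 10.0-fold). Ly6c1 had 69 UMIs against 3 (log2 4.52, 2.92 to 6.84), but its near-identical neighbour Ly6c2 had 10 against 17, and the division between them is uncertain. Il7r stood at 433 against 242 CPM (log2 0.83, 0.45 to 1.23) and was higher in 5 of 5 library numbers. Of the 226 cells with neither co-receptor UMI, 23.5% held Ly6c1, 23.9% Tspan32 and 55.8% Il7r. CD4 T cells had 23.9%, 30.1% and 57.5%, and CD8 T cells 0.862%, 2.59% and 37.1%. All 3 thus stood nearer CD4 than CD8 T cells. So did Icos (17.7%, against 19.5% in CD4 and 5.17% in CD8 T cells) and Tnfrsf4 (15.9%, against 20.4% and 3.45%). Gata3 (10.6%, against 12.4% and 3.45%) and Zbtb7b (4.42%, against 5.31% and 0%) did too. Itgb1 (11.9%, against 27.4% in CD4 and 10.3% in CD8 T cells) and Cxcr3 (6.19%, against 14.2% and 6.03%) stood nearer CD8 T cells. The cells without a co-receptor UMI may hold CD4 T cells whose Cd4 was missed. Whether these gaps are particular to CD4 T cells thus cannot be told from them. The ratio of Igkc (63 UMIs against 0) rested on the 6 Cd74-rich cells. So did the B cell marker list, with 8 of 10 genes past 2-fold higher and a median of 1.97, which was 0.033 without them.

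The memory and effector list was mixed. Of 22 genes 10 were past 2-fold higher in CD4 T cells and 2 lower (median 0.38). S100a4 had 25 UMIs against 4 (log2 2.65, 1.11 to 4.63), Itgb1 49 against 12 (log2 2.03), Id2 105 against 42 (log2 1.32), S100a6 81 against 36 (log2 1.17) and the chemokine receptor Cxcr6 25 against 11 (log2 1.19). Cxcr3, with 18 against 9, was 1 of the tied genes. Ccl5 went the other way, at 324 against 1405 CPM (log2 -2.12, -2.42 to -1.82). Several genes of the regulatory T cell list are also in the costimulation list. Over cytotoxic lymphocytes the regulatory list had 2 of 17 genes past 2-fold higher and 8 lower (median -0.40). Over CD8 T cells it had 8 of 13 past 2-fold higher and 0 lower (median 1.48), among them Izumo1r (20 UMIs against 2) and Nrp1 (15 against 1). Il2ra had 12 against 3, but the members without a Cd79 UMI had a log2 ratio of -1.33. Of the glycolysis genes 5 of 13 were past 2-fold higher and 0 lower (median 0.58), with Gapdh at 692 against 482 CPM and Aldoa at 176 against 80.8.

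Among genes lower in CD4 T cells, Cd7 had 13 UMIs against 89 (log2 -2.77, -3.74 to -1.93). The interferon-stimulated list had a median of -0.45, with 0 of 17 genes past 2-fold higher and 1, Iigp1, lower. Within that list Ly6a (848 against 477 CPM) and Ifi27l2a (449 against 229) had the opposite sign to most members. Ccl24, Il1rn, Cd36, Ccl9, Mmp19 and Retnla, genes of myeloid cells, had 11 to 47 UMIs in CD8 T cells and 0 or 1 in CD4 T cells. All UMIs of Cd36, Ccl9, Mmp19 and Retnla in CD8 T cells were in 1 cell each, in library number 1, and 1 cell held 44 of 47 for Ccl24 and 17 of 23 for Il1rn. Without library number 1, CD8 T cells kept 6 Il1rn UMIs, all in number 3. The log2 ratio of -1.04 was then a bound, with CD4 T cells set to the floor of 3 UMIs. The other 5 genes had at most 2 UMIs in CD8 T cells without number 1.

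**Figure D3:**
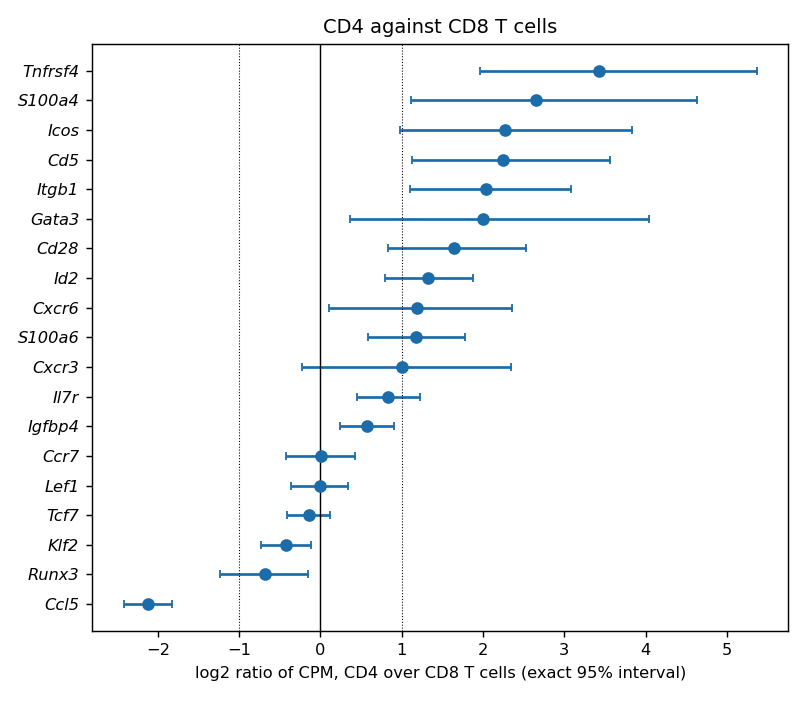
Log2 ratio of CPM in CD4 over CD8 T cells for 19 genes with exact 95% intervals; the dotted lines mark 2-fold. Tnfrsf4, S100a4, Icos and Cd5 lay above 2-fold, Lef1, Tcf7 and Ccr7 lay at about equal levels, and Ccl5 lay at -2.12.

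**Figure D4:**
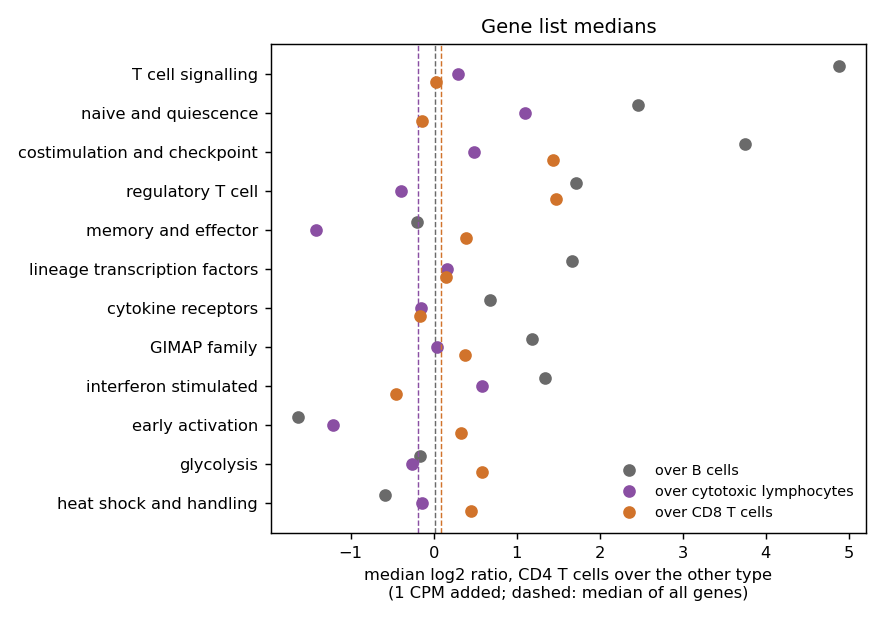
Median log2 ratio of 12 gene lists in CD4 T cells over B cells, cytotoxic lymphocytes and CD8 T cells, after adding 1 CPM; dashed lines mark the median of all genes. The signalling list stood at 4.89 over B cells and 0.02 over CD8 T cells, and the costimulation list at 3.75 and 1.43. Over cytotoxic lymphocytes these lists stood at 0.29 and 0.49, and the regulatory T cell list at -0.40 (1.48 over CD8 T cells).

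The CD4 T cells were not uniform. A UMI of Ccr7, the chemokine receptor for entry into lymph nodes, was found in 50 of 113 (44.2%, 34.9 to 53.9%), against 55.2% of CD8 T cells and 55.3% of cells with neither co-receptor. After thinning to 1500 UMIs the shares were 26.1%, 33.6% and 40.2%. By library number the fraction was 7 of 19, 15 of 28, 22 of 47, 3 of 10, 2 of 7 and 1 of 2. The 50 cells held a median of 2751 UMIs and the 63 others 2797. This split was chosen after the data were seen and was formed from the counts of the same cells, so that what follows is description.

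Cells with a Ccr7 UMI held more Igfbp4. It had 164 UMIs in 34 of the 50 and 26 UMIs in 11 of the 63 (1001 against 134 CPM, log2 2.91, 2.30 to 3.56), and the log2 ratio was 1.45 when the split was made on counts thinned to 1500 UMIs. Other naive genes differed by less than 2-fold. Lef1 stood at 513 against 272 CPM (log2 0.91, 0.40 to 1.44), Tcf7 at 769 against 514 (log2 0.58, 0.19 to 0.97) and Klf2 at 525 against 349.5 (log2 0.59, 0.11 to 1.07). Among library numbers with 10 or more UMIs of the gene, Tcf7 was higher in 5 of 5 and Klf2 in 4 of 4, Lef1 in 4 and lower in 1. Some of these gaps were small. In number 3 Klf2 read 356 against 354 CPM, and in number 1 Tcf7 read 457 against 432 CPM.

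In the naive list 3 of 22 genes were past 2-fold higher (2.48% of 2097 genes were) and 1 lower (9.01% were), with a median of 0.28 (all genes, -0.11). The gene that was lower was Il7r, at 256 against 581 CPM (log2 -1.18, -1.73 to -0.66), lower in 3 library numbers and higher in 1. S1pr1, the egress receptor, was spread over both (488 against 401 CPM, log2 0.28, -0.18 to 0.75), and so was Ly6c1 (238 against 154 CPM, log2 0.63, -0.10 to 1.36, and 3.07 without library number 3).

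The 63 cells without a Ccr7 UMI held most memory and effector transcripts. Of 13 such genes with 20 or more UMIs, 12 were past 2-fold lower in the 50 cells and 0 higher (median -2.32). The calcium-binding proteins S100a4 and S100a6 had 0 against 25 and 11 against 70 UMIs. The tissue homing receptor Cxcr6 had 0 against 25, the integrin chain Itgb1 10 against 39 and the regulator Id2 22 against 83. Outside these 13, the homing receptor Cxcr3 had 1 against 17 UMIs, Rora 1 against 22, Pdcd1 2 against 25 and Tnfrsf4 8 against 35. Ccl5 had 1 against 115, but 4 cells held 95 of its 116 UMIs, and Lgals3 had 0 against 43, of which 1 cell held 30. Crip1, the remaining gene of the list, stood at 507 against 812 CPM.

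In single cells Igfbp4 was not found together with Ccl5, Cxcr6 or S100a4, although a cell without a UMI may still express a gene. None of the 45 cells with an Igfbp4 UMI held a UMI of Ccl5 (14 cells), Cxcr6 (13) or S100a4 (10), whereas 38 of the 45 held Lef1 and 7 cells held both Ccl5 and Cxcr6. Lef1 did overlap, with a UMI in 6 of the 14 Ccl5 cells. In CD8 T cells the same split gave log2 ratios of 1.20 for Igfbp4, 0.16 for Lef1, -0.02 for Tcf7, -3.85 (-6.20 to -2.17) for S100a6 and -1.75 for Ccl5.

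**Figure D5:**
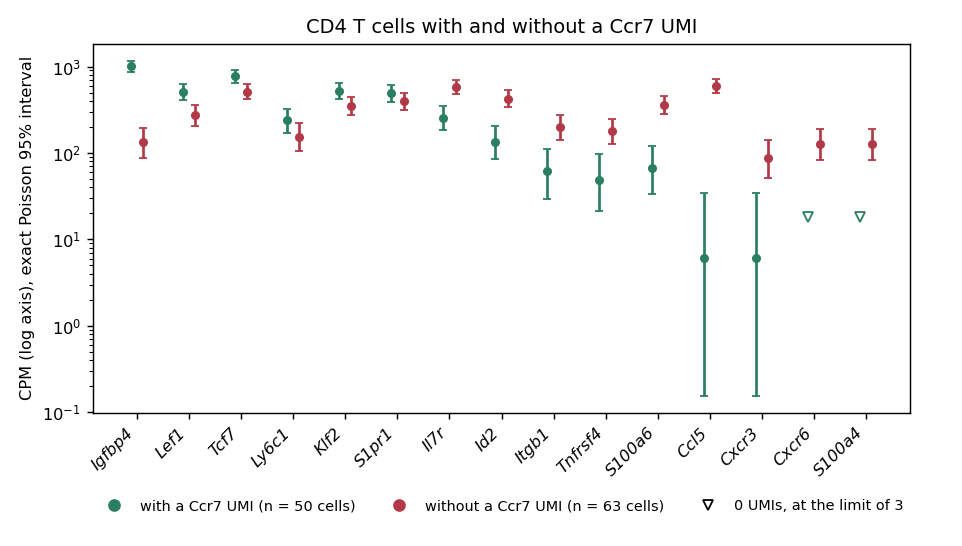
CPM (log axis) of 15 genes in the summed UMIs of CD4 T cells with (50 cells, green) and without (63 cells, red) a Ccr7 UMI, with exact Poisson 95% intervals; open triangles mark 0 UMIs at the limit of 3. Igfbp4 read 1001 against 134 CPM, and S100a4 and Cxcr6 had UMIs only in the cells without a Ccr7 UMI.

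Foxp3 was found in 4 CD4 T cells (3.54%, 0.973 to 8.82%), with 5 UMIs, in 0 CD8 T cells, in 7 of the 226 cells without a co-receptor UMI and in 0.104% of B cells. The 4 cells lay in library numbers 1, 1, 2 and 3, and all 4 held Ikzf2 (Helios), a factor of thymic regulatory T cells. Ikzf2 was held by 11 of the 113 CD4 T cells (9.73%), and by 17.7% of cytotoxic lymphocytes and 7.76% of CD8 T cells. Of the cells without a co-receptor UMI 10.2% held it. The folate receptor Izumo1r was found in 3 of the 4 Foxp3 cells. One had 10943 UMIs and was among the 6 Cd74-rich cells, and it held both Il2ra UMIs of the 4. Of the other subset factors, Tbx21 was found in 5 cells, Bcl6 in 5 and Gata3 in 14. Cytokine transcripts were rare. Il2, Ifng and Tnf had 1 UMI each and Il4 none, whereas the lymphotoxin Ltb stood at 511 CPM in 74 cells.

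T cell receptor variable (V) genes can be read in these libraries, which capture the 5′ ends of transcripts. A beta chain V gene was found in 78 of 113 CD4 T cells (69.0%, 59.6 to 77.4%), against 69.8% of CD8 T cells and 9 of 2874 B cells. The 199 beta UMIs came from 19 of 35 V genes. Trbv19 took 36 (18.1%, in 14 cells), Trbv13-2 32 (16.1%, in 16 cells), Trbv29 25 (7 cells, up to 9 UMIs in 1), Trbv1 17 and Trbv2 10. In CD8 T cells Trbv19 took 16 of 171 UMIs and Trbv13-2 took 24. UMIs of 1 cell come from 1 clone and are not independent, near-identical family members are uncertain, and 13 cells held UMIs of at least 2 beta V genes. An alpha chain V gene was found in 55 cells (48.7%), a gamma chain V gene in none and a delta chain V gene, with 1 UMI, in 1.

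Over the 5 libraries with 7 or more CD4 T cells some genes varied little and others much. In numbers 1 to 5, Igfbp4 read 239, 1021, 480.03, 169 and 359 CPM. Ccl5 read 358, 11.9, 430.2, 973 and 79.8 CPM, and Tnfrsf4 102, 178, 49.9, 465 and 120 CPM. Number 4 was highest for Ccl5 and Tnfrsf4 and lowest for Igfbp4. Trbc2 ranged from 341 to 761 CPM (median 623), Il7r from 296 to 479 (median 443) and H2-K1 from 1627 to 1995. Igfbp4 ranged from 169 CPM in number 4 to 1021 in number 2, which held 86 of its 190 UMIs. Ccl5 ranged from 11.9 CPM in number 2 to 973 in number 4, and Tnfrsf4 from 49.9 in number 3 to 465 in number 4. The Poisson intervals of number 2 did not overlap those of number 4 for Igfbp4 or Ccl5, but a few cells hold these UMIs, so that counting intervals are too narrow for them.

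The genes that carried the comparisons lie, in the GRCm38 build with GENCODE vM21 annotation, as protein-coding genes at the following places: Cd4 at chr6:124864692-124888221 (minus strand), Lef1 at chr3:131110471-131224356 (plus), Tcf7 at chr11:52252371-52283014 (minus), Igfbp4 at chr11:99041244-99054392 (plus), Ccr7 at chr11:99144196-99155077 (minus), Cd28 at chr1:60716800-60773359 (plus), Icos at chr1:60977927-61000320 (plus) and Tnfrsf4 at chr4:156013843-156016612 (plus).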

How the data were processed

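Single-cell libraries were made with a 10x Genomics 5′ kit. The authors aligned reads to human and mouse genomes and deposited 1 table of UMI counts per gene and cell for all libraries; the submitters' processing notes name Cell Ranger 2.2, Seurat 3.0 and the build mm10. The counts are not normalized. All 6 groups of cell columns carried a library number that could not be matched to a sample, so that the table was used as 1 sample and no p-value was computed. Cells with at least 500 genes and at most 10% mitochondrial UMIs were kept. Scrublet (scanpy 1.11.5, expected rate 0.01) was run per library and called doublets were left in.

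UMIs were summed per cell type and scaled to CPM. Genes at 20 CPM or more in either type and at least 2-fold apart were counted, and a gene at 0 was set to 3 counts. List medians used genes averaging 5 CPM or more, with 1 CPM added and the rule's genes left out. Intervals are exact at 95%, from scipy 1.17.1 in Python 3.11.15. Scripts were tested on simulated data. Genes were named by rule: the selecting genes and markers, the highest genes of each of 35 lists and those that define subsets, the 15 highest and 10 lowest ratios per comparison with 1 sign in every library number with 10 or more UMIs, the 10 most abundant genes and the 5 most used V genes. Further members of the lists, and Ly6c2, were named as examples after their values were seen. The members and lists were chosen with earlier results of these data known. Some genes, and a planned split among the CD4 T cells, are not reported here, and the split by Ccr7 was chosen after the data were seen. Positions come from GENCODE vM21.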

Additional observations from a re-analysis of the deposited data

How the results depend on the processing

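No paired analysis was possible because the cell columns carry no sample and no result comes from a test. Of 3536 alternative values, 835 for the main results stayed near the reported one (a share or single-gene ratio within its own interval, a count within 1.5 times, a list median within 0.58), 78 moved and 1 reversed; for single genes 2516 stayed, 5 reversed and the rest moved. The cause of these moves was not tested.

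The share of CD4 T cells was 1.17% at 1000 genes or more, 1.19% at a Cd3 sum of 3 and 0.391% at 2 Cd4 UMIs, and 1.00 to 1.75% with each library left out. Genes lower than in CD8 T cells numbered 524 at 1000 genes, 664 at 2 Cd4 UMIs, 520 at a Cd79 sum of 0, 577 at a cytotoxic sum of 0, 499 below 10 Cd74 UMIs, 515 with median-of-ratios scaling, 934 on CPM without immunoglobulin, mitochondrial and ribosomal protein genes, 881 with equal weight per library, 78 at 50 CPM and 790 with no minimum, and 424 to 590 with each library left out. Genes higher than in CD8 T cells numbered 1333 with equal weight per library, 219 at 50 CPM, 1746 with no minimum and 672 to 1249 with each library left out.

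Genes higher than in cytotoxic lymphocytes numbered 642 at 2 Cd4 UMIs, 1118 with equal weight per library, 979 on the restricted CPM, 125 at 50 CPM, 1119 with no minimum and 370 to 884 with each library left out, and those lower 468 at 50 CPM and 1794 with no minimum. Over B cells 463 were higher and 521 lower at 50 CPM, and 2994 and 1666 with no minimum. The share of 1.00% and the counts of 884, 1249 and 590 were those without library number 3.

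The costimulation median over CD8 T cells was 0.80 at 1000 genes, 0.71 with equal weight per library, 0.74 at the higher minimum and 0.80 to 1.40 with each library left out; over B cells it was 4.43 on the restricted CPM, 2.99 at the higher minimum, 1.82 with none and 1.89 with 5 CPM added. The B cell marker median over CD8 T cells was -3.57 at a Cd79 sum of 0, 0.033 below 10 Cd74 UMIs, 0.96 with equal weight per cell and 3.28 per library. At 2 Cd4 UMIs the Tfh median over CD8 T cells was 0.34 and the CD8 marker median -0.56 (-0.77 with equal weight per cell). With equal weight per library the early activation median was -0.81 over B cells and -0.62 over cytotoxic lymphocytes, and the NK marker median -4.41 (-3.25 with 5 CPM added). The signalling median over B cells was 3.38 with 5 CPM added and the lineage factor median 1.01 with no minimum. The log2 ratio of Cd69 over CD8 T cells, not given above, was -1.32 from 2 UMIs in CD4 T cells. It was 0.47 at 2 Cd4 UMIs and 0.21 at a cytotoxic sum of 0. Il2ra was -1.33 over CD8 T cells at a Cd79 sum of 0 and 0.71 over B cells with equal weight per library, and Slpi 0.31 over the cytotoxic cells without macrophage or B cell genes.

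Thinned to 1500 UMIs, Lef1 was found in 44.1%, Tcf7 in 58.6%, Ccr7 in 26.1%, Il7r in 41.4% and Cd28 in 20.7% of cells, and at 1000 UMIs in 27.4%, 43.4%, 20.4%, 29.2% and 12.4%, with Igfbp4 in 29.2%. With the Ccr7 split made on thinned cells the log2 ratios were 1.45 for Igfbp4, -0.59 for Il7r, -3.50 for S100a6 and -3.29 for Id2. At cytotoxic and Cd79 sums of 0 Id2 was -2.61 and the bound for Lgals3 0. Below 10 Cd74 UMIs S100a6 was -4.15 and Id2 -3.11. With each library left out Igfbp4 ranged from 2.2 (without number 2) to 3.77 (without number 3), Il7r from -1.83 (without number 2) to -0.70, Ly6c1 from 0.33 to 3.07 (without number 3), Id2 from -2.52 (without number 1) to -1.35, and Tnfrsf4 in Foxp3 cells from 0.45 to 3.32 (without number 1). The limit on Cd74, the cytotoxic cells without macrophage or B cell genes, the Ccr7 split in CD4 and CD8 T cells and the tied genes were chosen after seeing the data. A UMI count of 0 over all CD4 T cells allows up to 8.37 CPM.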
